A study of Mus musculus with 9 samples.

Results

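A set of 10 genes known for their use before birth, hereafter the fetal-stage set, was followed in macrophage cultures of mouse bone marrow and mouse fetal liver. The set holds 10 of the 46078 genes in the deposited table of expression values, taken by gene name: the RNA-binding proteins Igf2bp1, Igf2bp2, Igf2bp3, Lin28a and Lin28b, the chromatin proteins Hmga1, Hmga2 and Arid3a, the non-coding RNA H19 and the growth factor gene Igf2. Poly(A) RNA was sequenced from 3 cultures with 3 libraries each, 9 in all. All cells came from C57BL/6J mice, an inbred strain, and had been cultured for at least 8 weeks. BMM were macrophages from bone marrow, whose medium the labels do not describe. FLM_M were macrophages from livers of fetuses of gestational day 15 to 19, grown with 20% fetal bovine serum and 30% L-cell supernatant, which supplies M-CSF (macrophage colony-stimulating factor). FLM_G came from fetal livers of the same days and were grown with 10% fetal bovine serum and 30 ng/ml of the cytokine GM-CSF, made as a recombinant protein. The labels name no separate animals, litters or cultures behind the 3 libraries of a group, which were wells plated in triplicate, so p-values measure the spread between these libraries only, which may be technical.

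The question put to the 10 genes was whether a fetal programme is still seen after weeks in culture. No uncultured fetal or adult cells and no earlier times were among the samples, so a level could not be compared with its starting level. Source tissue and medium cannot be told apart between BMM and FLM_G, nor, since the BMM medium is not described, between BMM and FLM_M. FLM_G and FLM_M differed in serum share and in cytokine source together, so the parts of these cannot be told apart either. The cultures also differed in sex genes: Xist, the RNA of the inactive X chromosome, was at 0.00201 scaled FPKM in BMM, 70.9 in FLM_M and 48.6 in FLM_G, and the Y-linked Ddx3y was at 9.20, 0 and 0.0055. The part of sex in the differences below cannot be told apart from that of source tissue.

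In fetal tissues the RNA-binding proteins LIN28A and LIN28B block the maturation of let-7, a family of small RNAs (miRNAs) that lower the output of messenger RNAs carrying sites for them. Among the known targets of let-7 are Hmga2, the Igf2bp genes and the Lin28 genes themselves, and in blood-forming cells of the fetal liver Lin28b and Hmga2 are known to support self-renewal, while Arid3a is known for its part in fetal-type B cell formation. IGF2BP proteins bind messenger RNAs, many with N6-methyladenosine (m6A), and stabilise them or control their translation, and H19 and Igf2 are neighbouring imprinted genes of fetal growth.

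Mature let-7 sequences are shown because 8 of the 9 protein-coding genes of the set carry a match to their seed, the part of a miRNA that pairs with its targets. RefSeq (GRCm38.p6) lists 11 mature names of the family from 13 loci. Bases 2 to 8, the seed, are in capitals, and 10 of the 11 names share it; let-7j has another. Examples, read 5′ to 3′, are:
let-7a-5p: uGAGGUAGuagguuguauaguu
let-7b-5p: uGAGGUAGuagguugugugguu
let-7d-5p: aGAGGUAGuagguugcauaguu
let-7g-5p: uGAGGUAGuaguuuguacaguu
let-7i-5p: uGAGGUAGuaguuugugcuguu
miR-98-5p: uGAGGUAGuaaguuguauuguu
These stood at chr13:48538239-48538260 on the minus strand (let-7a), chr15:85707325-85707346 (let-7b), chr13:48536078-48536099 on the minus strand (let-7d), chr9:106178846-106178867 (let-7g), chr10:122985698-122985719 on the minus strand (let-7i) and chrX:151913229-151913250 (miR-98).

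The letters CTACCTC, which pair with the seed, and the longer CTACCTCA, which contains them, were searched on the transcript strand in the longest annotated 3′ UTR of each gene (GENCODE M21, GRCm38). The sites of the 5 genes that were expressed in at least 1 culture follow, since the results turn on these genes. Each is 22 bases of the transcript, 5′ to 3′, with the matching letters in capitals:
Igf2bp3, chr6:49086787-49086808, minus strand: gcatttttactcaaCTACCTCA
Igf2bp2, chr16:22059473-22059494, minus strand: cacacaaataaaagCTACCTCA
Hmga1, chr17:27563278-27563299, plus strand: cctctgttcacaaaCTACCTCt
Hmga2, chr10:120364224-120364245, minus strand: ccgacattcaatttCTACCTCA
Hmga2, chr10:120362987-120363008, minus strand: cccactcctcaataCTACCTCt
Hmga2, chr10:120362549-120362570, minus strand: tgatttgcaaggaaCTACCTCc
Hmga2, chr10:120361691-120361712, minus strand: atcaaaacacactaCTACCTCt
Arid3a, chr10:79953896-79953917, plus strand: aggcaagtttctttCTACCTCA
Arid3a, chr10:79954723-79954744, plus strand: gaaaaaactgttttCTACCTCt
A match is a description of the sequence and not evidence of binding.

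Hmga2 held 4 matches to the 7 letters in 3014 bases of 3′ UTR, the first 58 bases after the stop codon, and 0.123% of 3′ UTRs of similar length (0.8 to 1.25 times) held as many. Lin28b (4 matches in 4445 bases) and Igf2bp1 (4 in 6337 bases) were also rich in matches, with 0.295% and 0.331% of UTRs of similar length holding as many. The UTRs of similar length include that of the gene itself, so these shares are not independent of it. Lin28a and Arid3a each held 2 matches, and Igf2bp2, Igf2bp3 and Hmga1 held 1 each. In UTRs of the length of these 3, a match was found in 12.1%, 13.3% and 8.23%, so that 1 match is not unusual. Igf2 held none in 3050 bases, and H19 has no 3′ UTR. Over all 21045 protein-coding genes with a 3′ UTR, 9.02% held the 7 letters and 3.06% the 8 letters. The map of matches places them along each UTR.

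**Figure D1:**
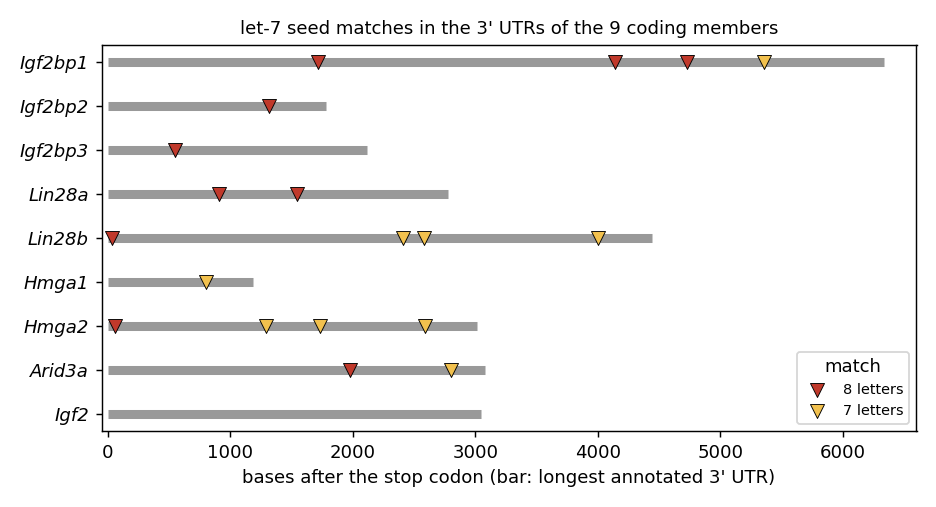
Positions of let-7 seed matches in the longest annotated 3′ UTR of the 9 protein-coding genes of the set. The x axis gives bases after the stop codon, grey bars the UTR, red triangles CTACCTCA and yellow triangles CTACCTC without the final A; Igf2bp1, Lin28b and Hmga2 hold 4 matches each and Igf2 none.

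Levels are given as FPKM, in which the fragments of a gene are divided by transcript length and library size, scaled between libraries. This allows comparison between genes. Depth was even: the smallest steps of the values put the libraries at 28390000 to 35470000 reads, so that 1 FPKM over 1 kb stood for 28.4 to 35.5 reads, and libraries of 1 culture correlated at 0.986 to 0.992 over log2 values, against 0.785 to 0.936 between cultures. This depth is an estimate, since 26.1% to 30.8% of low values lay close to a whole number of reads. Implied reads of a gene assume its longest transcript and are approximate. All 10 macrophage markers examined were above 1 FPKM in each culture. Markers of liver and blood-forming cells were low: 10 hepatoblast and hepatocyte markers summed to 2.14 to 2.57 per BMM library, 2.31 to 2.94 per FLM_M library and 0.79 to 1.13 per FLM_G library, from Afp and, in BMM and FLM_M, Apoa2, with Alb, Ttr, Apoa1 and Dlk1 at 0 in all 9. The 7 stem and progenitor markers summed to 1.57 to 1.60 in BMM, mostly Cd34, 0.011 to 0.034 in FLM_M and 0.035 to 0.047 in FLM_G, embryonic globins were at 0, and so were 5 embryonic stem cell markers. Of 11 erythroid markers only the erythropoietin receptor gene Epor was above 1 FPKM, at 0 in BMM, 2.33 in FLM_M and 5.24 in FLM_G. The 9 fibroblast and stellate markers summed to at most 2.0 in any library. Other lists differed between the cultures: 6 endothelial markers summed to 1.35 to 1.42 per BMM library, 6.32 to 8.27 per FLM_M library (mostly Kdr) and 4.25 to 4.43 per FLM_G library (mostly Cdh5), with Emcn at 0 in all 9. The 8 neutrophil and mast cell markers summed to 1.88 to 2.33, 9.51 to 12.3 and 49.7 to 56.6, mostly S100a8, with Elane, Ly6g, Cpa3, Mcpt4 and Ms4a2 at 0 in all 9. The part of such cells in the differences below was not tested. In bulk RNA, fewer cells expressing a gene and less RNA per cell cannot be told apart.

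Of the 10 genes, 5 passed the filter for testing (at least 1 FPKM in at least 3 libraries): Igf2bp2, Igf2bp3, Hmga1, Hmga2 and Arid3a. Differences below are of log2(scaled FPKM + 1), tested with limma over 11952 genes with Benjamini-Hochberg adjustment and called at an adjusted p under 0.05. In FLM_M against BMM, 4 of the 5 were called (Igf2bp2, Igf2bp3 and Hmga2 higher, Hmga1 lower), where 44.6% of all tested genes were called, 22.7% higher and 21.9% lower. In FLM_G against BMM, 4 were called (Igf2bp3 and Arid3a higher, Hmga1 and Hmga2 lower) beside 68.0% of all genes, 33.8% higher and 34.1% lower. In FLM_G against FLM_M, 3 were called (Arid3a higher, Igf2bp3 and Hmga2 lower) beside 70.6% of all genes, 35.5% higher and 35.1% lower. With 5 members tested, these counts do not set the genes apart from the share over all genes. Both comparisons with BMM share the BMM libraries.

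**Figure D2:**
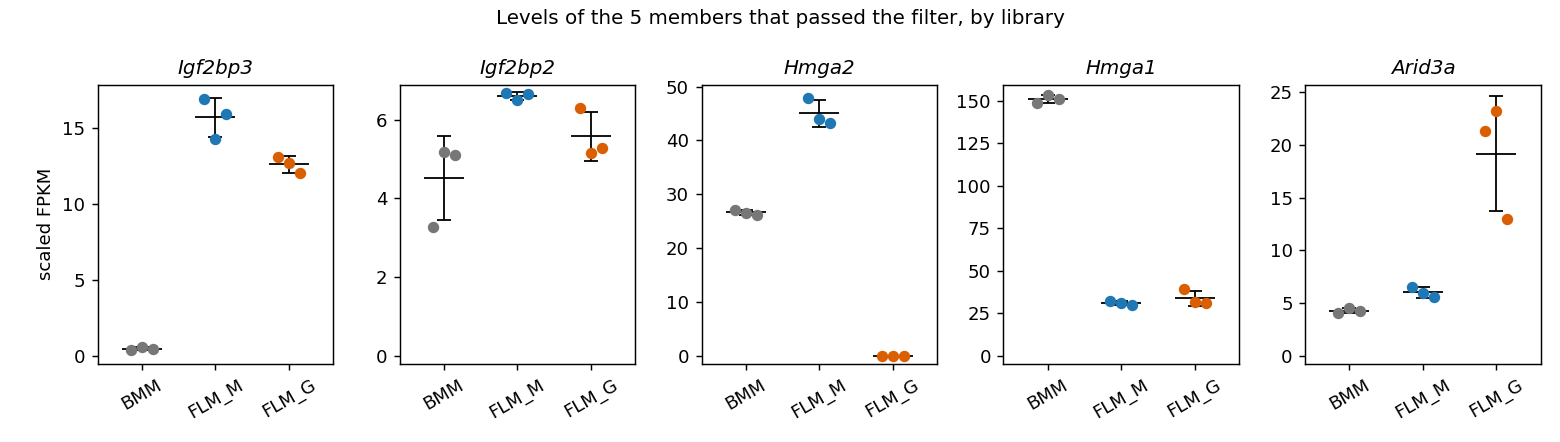
Scaled FPKM (y axes, linear, each starting at 0 with its own range) of the 5 expressed genes in BMM, FLM_M and FLM_G. Points are libraries, horizontal bars means and whiskers the SD of 3 libraries; Igf2bp3 is high in both fetal liver cultures, Hmga1 is highest in BMM, Hmga2 is near 0 in FLM_G and Arid3a is highest in FLM_G.

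Igf2bp3 was the member that stood highest over BMM in both fetal liver cultures. It encodes an RNA-binding protein that is made in fetal tissues and tumours and little in most adult tissues (ENSMUSG00000029814, chromosome 6, 49085223 to 49214957, minus strand, GRCm38). Its scaled FPKM was 0.397, 0.564 and 0.414 in BMM, 16.9, 14.3 and 15.9 in FLM_M, and 13.1, 12.7 and 11.99 in FLM_G. All 6 fetal liver libraries lay above all 3 BMM libraries, and the FLM_G libraries lay below the FLM_M libraries without overlap. The means were 0.458 ± 0.092 (SD, n = 3), 15.7 ± 1.3 and 12.6 ± 0.55, a ratio to BMM of 34.2 in FLM_M and 27.5 in FLM_G.

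On the log2 scale Igf2bp3 was higher by 3.51 in FLM_M than in BMM (SE 0.076, limma adjusted p = 3.583e-09), and 0.259% of all tested genes had a larger difference in either direction. In FLM_G it was higher by 3.22 (limma adjusted p = 1.511e-09), and 2.01% of genes had a larger one. FLM_G stood below FLM_M by a log2 difference of -0.29 (95% interval -0.467 to -0.119, limma adjusted p = 0.007647), which did not pass a test against a 1.5-fold change (limma adjusted p = 1). The size against BMM depends on the pseudocount because the BMM level is low: with 0.1 in place of 1 the differences were 4.83 and 4.52. All 3 BMM libraries lay under 1 FPKM, so Igf2bp3 passed the filter only through the fetal liver libraries. Its direction against BMM was thus not open, and the call is no separate support for it. With no filter on low values the differences were 3.51 in FLM_M and 3.22 in FLM_G (limma adjusted p = 3.025e-08 and 1.424e-08).

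The deposited count table gave Igf2bp3 a much smaller difference. Its counts were 16, 31 and 19 in BMM, 57, 50 and 58 in FLM_M and 29, 29 and 17 in FLM_G, which is 27.1% to 37.1% of the reads implied by FPKM in BMM and 1.31% to 2.31% in the fetal liver libraries. On these counts the log2 difference from BMM was 0.78 in FLM_M by edgeR (adjusted p = 0.04407) and 0.70 by DESeq2 (adjusted p = 0.2404), so that the call held in 1 of the tools. In FLM_G it was 0.52 by edgeR (adjusted p = 0.2021) and 0.47 by DESeq2 (adjusted p = 0.4489), and the call was lost in both. The difference between FLM_G and FLM_M was lost as well, at -0.26 by edgeR (adjusted p = 0.4915) and -0.23 by DESeq2 (adjusted p = 0.7223). Malsu1, a mitochondrial ribosome assembly gene on the opposite strand, shares 1529 of the 8159 exon bases of Igf2bp3 and stood at 3.04, 3.29 and 3.80 scaled FPKM in BMM, FLM_M and FLM_G. Its part in the counts was not tested. In BMM the counts of the other tested members were a smaller share of their implied reads. That share was 0.72% to 1.48% for Igf2bp2 and 1.76% to 1.91% for Hmga1. It was 0.987% to 1.22% for Hmga2 and 0.122% to 0.475% for Arid3a. The cause of the larger BMM share of Igf2bp3 was not tested. The hepatoblast markers had the sums given above, with Afp at 1.79, 2.19 and 0.91 in BMM, FLM_M and FLM_G and Alb at 0. The part of such cells in the level of Igf2bp3 was not tested.

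Igf2bp2, the family member that is also widely made in adult tissues, was present in all 3 cultures (ENSMUSG00000033581, chromosome 16, 22059009 to 22163299, minus strand). Its scaled FPKM was 3.27, 5.19 and 5.10 in BMM, 6.69, 6.50 and 6.66 in FLM_M, and 6.29, 5.17 and 5.28 in FLM_G. FLM_M lay above both other cultures without overlap, while FLM_G overlapped BMM, whose first library was the lowest of all. The log2 difference was 0.48 in FLM_M against BMM (SE 0.139, 95% interval 0.167 to 0.801, limma adjusted p = 0.02065), a ratio of means of 1.46. The call was lost without FLM_M replicate 3 (limma adjusted p = 0.0542), against a 1.5-fold change (limma adjusted p = 1) and on the counts (edgeR adjusted p = 0.3936, DESeq2 adjusted p = 0.7572). Without BMM replicate 1 the difference was smaller, 0.30 in FLM_M (limma adjusted p = 0.02247) and 0.087 in FLM_G (limma adjusted p = 0.3846). FLM_G differed from BMM by 0.27 (95% interval -0.048 to 0.587, limma adjusted p = 0.1161) and from FLM_M by -0.21 (95% interval -0.532 to 0.103, limma adjusted p = 0.1966), neither of which passed. The second passed without BMM replicate 1 (limma adjusted p = 0.02962) and without scaling (-0.63, limma adjusted p = 0.00291), and it had the other sign on the counts (0.24, edgeR adjusted p = 0.6464; 0.27, DESeq2 adjusted p = 0.7796), while the first had the other sign without scaling (-0.082, limma adjusted p = 0.6169).

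Igf2bp1, the third paralog and another fetal RNA-binding protein (ENSMUSG00000013415, chromosome 11, 95957163 to 96005940, minus strand), was not detectable as an expressed gene at this depth. Its scaled FPKM was 0.00597, 0.00303 and 0 in BMM, 0, 0.0118 and 0.00954 in FLM_M, and 0.00873, 0 and 0.0123 in FLM_G. These values stand for 0 to 3.45 reads per library, and no culture stood apart. Of the 3 Igf2bp paralogs, then, 1 was at trace level in all cultures, 1 was present in all, and 1 was higher in both fetal liver cultures.

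The LIN28 genes were listed at 0 throughout. Lin28a (chromosome 4, 134003330 to 134018841, minus strand) and Lin28b (chromosome 10, 45376620 to 45486395, minus strand) had an FPKM of 0 and a count of 0 in all 9 libraries. A single read over the longest transcript would have given 0.00804 to 0.0101 FPKM for Lin28a and 0.00522 to 0.00652 for Lin28b. Whether an exact 0 in these files can be a failed estimate was not tested. For 6 genes a 0 stood in 1 library while both others of the group had 5 FPKM or above.

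H19, the imprinted RNA that is abundant in fetal liver (chromosome 7, 142575529 to 142578143, minus strand), was listed at 0 in 8 of 9 libraries and at 0.0124 scaled FPKM in BMM replicate 2, less than 1 implied read (0.964). Igf2, which encodes the fetal growth factor (chromosome 7, 142650766 to 142666816, minus strand), was listed at 0 in 8 of 9 libraries and at 0.00876 in FLM_M replicate 1, or 1.64 implied reads. In the annotation 59.3% of the 101-base windows of Igf2 also occur in Gm49394. That gene overlaps Igf2 on the same strand, with 3596 of the 5723 exon bases of Igf2 shared. It has no values in the deposited data, so no reads were listed under it.

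Hmga2, a DNA-bending protein of dividing embryonic cells and a textbook let-7 target (ENSMUSG00000056758, chromosome 10, 120361275 to 120476469, minus strand), separated the fetal liver cultures from each other. Its scaled FPKM was 27.15, 26.6 and 26.2 in BMM, 47.9, 43.95 and 43.25 in FLM_M, and 0.00633, 0 and 0 in FLM_G. The 3 cultures did not overlap, and the single value above 0 in FLM_G stands for 0.563 of a read, against 3450 to 3740 reads in BMM and 5850 to 7250 in FLM_M. The means of BMM and FLM_M were 26.6 ± 0.48 (SD, n = 3) and 45.0 ± 2.5.

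FLM_M stood above BMM for Hmga2 by a log2 difference of 0.74 (SE 0.052, limma adjusted p = 5.639e-06), a ratio of means of 1.69, which did not pass a test against a 1.5-fold change (limma adjusted p = 0.1004). FLM_G stood below BMM by -4.79 (limma adjusted p = 2.236e-11) and below FLM_M by -5.52 (limma adjusted p = 7.656e-12), and 0.628% and 0.527% of tested genes had a larger difference. With FLM_G near 0 these sizes are set by the pseudocount (-8.03 and -8.79 with 0.1) and are no bound on the ratio. Hmga2 passed the filter only through BMM and FLM_M, so its direction in FLM_G was likewise not open. The mean of both fetal liver cultures was lower than BMM by a log2 difference of -2.02 (limma adjusted p = 2.579e-09), a value that averages a higher and a lower culture. Among tested genes Hmga2 stood at percentile 83.5 in BMM, 90.4 in FLM_M and 1.1 in FLM_G.

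Hmga1, the sister gene of Hmga2, encodes a DNA-binding protein of dividing cells (ENSMUSG00000046711, chromosome 17, 27556497 to 27563674, plus strand), and it was highest in bone marrow macrophages. Its scaled FPKM was 148.8, 153 and 150.9 in BMM, 32.1, 31.0 and 29.8 in FLM_M, and 38.9, 31.7 and 30.7 in FLM_G. All 6 fetal liver libraries lay below all 3 BMM libraries, and the fetal liver cultures overlapped each other. The mean was 150.9 ± 2.1 (SD, n = 3) in BMM, 31.0 ± 1.1 in FLM_M and 33.8 ± 4.5 in FLM_G, the last 2 being 4.88 and 4.47 times lower than BMM.

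On the log2 scale Hmga1 was lower than in BMM by 2.25 in FLM_M (SE 0.082, limma adjusted p = 8.31e-08) and by 2.13 in FLM_G (limma adjusted p = 3.571e-08). FLM_G and FLM_M differed by 0.11 (95% interval -0.0735 to 0.303, limma adjusted p = 0.2421), and this sign turned without scaling between libraries (-0.36, limma adjusted p = 0.005115) and on the counts (-0.22, edgeR adjusted p = 0.5872; -0.19, DESeq2 adjusted p = 0.7434). The 7 stem and progenitor markers, also highest in BMM, had the low sums given above, and their part in the difference was not tested. Of the 101-base windows of Hmga1, the read length, 39.8% occur more than once among annotated genes, so that its level is uncertain.

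Arid3a, a DNA-binding transcription factor of B and blood progenitor cells (ENSMUSG00000019564, chromosome 10, 79927043 to 79955018, plus strand), was highest in FLM_G. Its scaled FPKM was 4.065, 4.50 and 4.19 in BMM, 6.56, 5.95 and 5.54 in FLM_M, and 21.3, 23.3 and 12.9 in FLM_G. The 3 cultures did not overlap, and FLM_G replicate 3 was below the other two of its group. The means were 4.25 ± 0.22 (SD, n = 3), 6.015 ± 0.51 and 19.2 ± 5.5.

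Arid3a was higher in FLM_G than in BMM by a log2 difference of 1.90 (SE 0.183, limma adjusted p = 1.923e-05), a ratio of means of 4.51. It was higher than in FLM_M by 1.49 (limma adjusted p = 8.825e-05), a ratio of 3.19. FLM_M and BMM differed by 0.42 (95% interval -0.0035 to 0.835, limma adjusted p = 0.09927), which did not pass in the fit over 9 libraries. That difference did pass with only the 6 libraries compared (limma adjusted p = 0.006039) and without FLM_G replicate 3 (limma adjusted p = 0.002381). On the counts, with 1 to 4 per BMM library, it passed by edgeR (1.51, adjusted p = 0.04387) and not by DESeq2 (1.46, adjusted p = 0.1985).

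**Figure D3:**
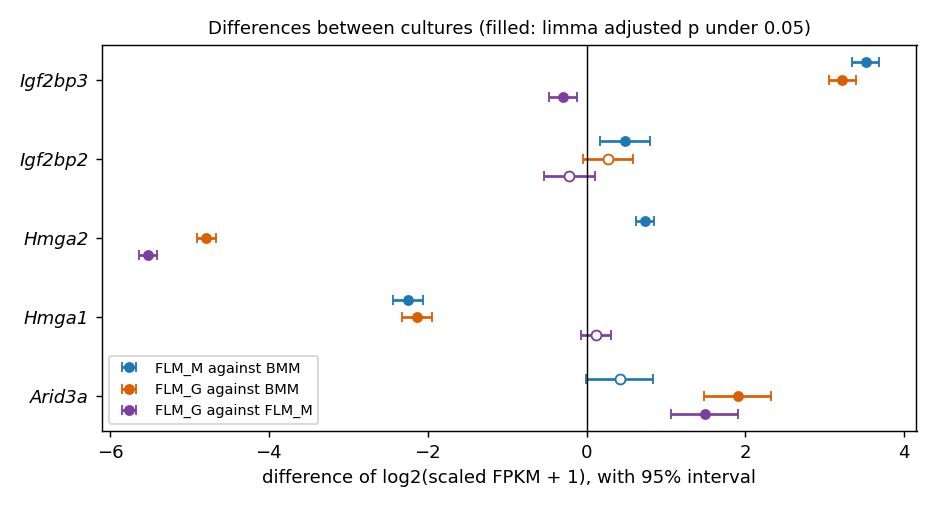
Differences of log2(scaled FPKM + 1) between cultures for the 5 expressed genes, with 95% intervals from limma (x axis). Filled points have an adjusted p under 0.05 and open points do not; Igf2bp3 lies at 3.51 and 3.22 against BMM, Hmga1 at -2.25 and -2.13, and Hmga2 at 0.74 in FLM_M and -4.79 in FLM_G.

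Comparing the mean of both fetal liver cultures with BMM, all 5 tested members were called, 3 higher (Igf2bp2, Igf2bp3 and Arid3a) and 2 lower (Hmga1 and Hmga2), beside 55.5% of all genes, 28.7% higher and 26.7% lower. For 2 members, Igf2bp3 and Arid3a, all 6 fetal liver libraries lay above all BMM libraries, as for 11.3% of tested genes. For Hmga1 all 6 lay below, as for 12.8% of tested genes. The call of Igf2bp2 (0.38, limma adjusted p = 0.02642) was lost without BMM replicate 1 (0.20, limma adjusted p = 0.06172), with the replicate number as a block (limma adjusted p = 0.05067), without scaling (0.23, limma adjusted p = 0.1309), against a 1.5-fold change (limma adjusted p = 1) and on the counts (edgeR adjusted p = 0.2239, DESeq2 adjusted p = 0.55). That of Igf2bp3 was lost on the counts, at 0.65 by edgeR (adjusted p = 0.06423) and 0.59 by DESeq2 (adjusted p = 0.2564).

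Within a culture the order of levels differed. In BMM, Hmga1 (percentile 97.5 of tested genes) was followed by Hmga2, then by Igf2bp2 and Arid3a, whose libraries overlapped, and by Igf2bp3 at percentile 3.6. In FLM_M, Hmga2 was followed by Hmga1 (percentile 85.6), Igf2bp3 (72.4), and Igf2bp2 and Arid3a, which again overlapped. In FLM_G, Hmga1 (percentile 85.8) was followed by Arid3a (76.3) and Igf2bp3 (66.6), which overlapped through FLM_G replicate 3, and by Igf2bp2 (44.8). The other 5 genes were at or below percentile 1.7 in every culture, as was Hmga2 in FLM_G.

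The genes with the most similar profile were found by the smallest root mean square difference of centred log2 values over the 9 libraries among 7363 genes. For Igf2bp3 they were Cdkn2a (0.271), at 1.71, 27.55 and 17.1 scaled FPKM in BMM, FLM_M and FLM_G, and Cpne8 (0.286), at 0.124, 7.46 and 9.34. For Hmga2 they were Marcksl1 (0.142), at 57.8, 79.9 and 0.945, and St3gal5 (0.142), at 101.3, 145.9 and 3.00. That these profiles repeat the low FLM_G level of Hmga2 follows from the way they were chosen. For Hmga1 they were Sdc1 (0.0893), at 8.50, 0.962 and 1.11, and Slfn8 (0.124), at 8.66, 1.09 and 1.30. For Arid3a they were Crebl2 (0.159), at 1.172, 1.84 and 7.39, and Bhlhe41 (0.189), at 13.6, 17.6 and 56.5. For Igf2bp2, the flattest, they were Ciz1 (0.122), at 6.51, 9.30 and 7.32, and Hps4 (0.122), at 3.71, 5.52 and 3.94.

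Of 19 genes of let-7 processing, 18 were tested; Trim71 was at 0 in all cultures. In FLM_M against BMM 3 were higher and 3 lower (median log2 difference -0.03, all genes 0.00). In FLM_G 2 were higher and 10 lower against BMM (median -0.43), and 6 higher and 10 lower against FLM_M (median -0.29). The shares called over all tested genes were 44.6% in FLM_M against BMM, 68.0% in FLM_G against BMM and 70.6% in FLM_G against FLM_M. Drosha, the nuclear enzyme that cuts primary miRNAs, was at 6.58 ± 0.21 (SD, n = 3) in BMM, 8.79 ± 0.38 in FLM_M and 3.92 ± 0.35 in FLM_G, and it passed in all 3 comparisons. Dicer1, which cuts the hairpin, was lower in FLM_M than in BMM (4.44 against 6.50, log2 difference -0.46, limma adjusted p = 0.0001656). The splicing factor gene Hnrnpa1, whose protein binds let-7 precursors, was lower than in BMM in both fetal liver cultures. Its log2 difference was -0.88 in FLM_M (limma adjusted p = 1.731e-06) and -0.56 in FLM_G (limma adjusted p = 1.629e-05).

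The LIN28 pathway also uses the uridylyl transferases TUT4 and TUT7, which tag let-7 precursors for decay. Tut7 (Zcchc6 in the table) was at 13.8 in BMM, 16.95 in FLM_M and 13.97 in FLM_G. Tut4 (Zcchc11), named after its values were seen, was at 3.46 ± 0.14 (SD, n = 3), 3.72 ± 0.49 and 0.23 ± 0.05, lower in FLM_G than in BMM by a log2 difference of -1.86 (limma adjusted p = 7.745e-08). A list of 12 transcripts held let-7 hosts and precursors together with Mir125a, which neighbours let-7e, and Mir675, which is cut from H19. Of the 12, 11 were found and none passed the filter, with a highest group mean of 0.26. Poly(A) libraries do not measure mature let-7, so its level in these cultures is not known from these data.

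Over all tested genes, those whose 3′ UTR held the 8 letters (381) had median log2 differences of -0.01 in FLM_M against BMM, -0.04 in FLM_G against BMM and -0.04 in FLM_G against FLM_M. Those without the 7 letters (9269) had 0.01, -0.01 and -0.02. Among 20 other known let-7 targets, 16 were tested: 3 were higher and 4 lower in FLM_M against BMM (median 0.03), 4 and 5 in FLM_G against BMM (median -0.14), and 6 and 6 in FLM_G against FLM_M (median 0.05). Over all tested genes the shares called were 44.6%, 68.0% and 70.6%. A pair of D-type cyclins, which drive entry into the cell cycle, differed in order across the cultures. Ccnd1 was at 191.0 ± 1.4 (SD, n = 3) in BMM, 279.1 ± 17 in FLM_M and 22.65 ± 2.1 in FLM_G, while Ccnd2 was at 1.10 ± 0.096, 9.05 ± 1.1 and 32.1 ± 1.5. Both passed in each of the comparisons.

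Of 17 genes of the IGF system, to which the product of Igf2 belongs, 5 passed the filter. In FLM_M against BMM 2 were higher and 1 lower, and in each FLM_G comparison 2 were higher and 2 lower. With 5 genes tested, these counts do not set the list apart from the 44.6%, 68.0% and 70.6% called over all genes. Igf1, the ligand made by macrophages, was at 35.6 ± 1.1 (SD, n = 3) in BMM, 41.6 ± 1.8 in FLM_M and 40.1 ± 3.5 in FLM_G, while Igf2 was at or near 0. Igf2r, the receptor that takes IGF2 to lysosomes, was at 24.85 ± 0.40, 8.87 ± 1.4 and 3.565 ± 0.22, lower in both fetal liver cultures (log2 differences -1.40 and -2.50, limma adjusted p = 3.471e-06 and 2.579e-08). Igf1r, the signalling receptor, named after its values were seen, stayed under the filter at 0.505 ± 0.048, 0.0112 ± 0.019 and 0.0716 ± 0.025. Igfbp4, an IGF-binding protein, was at 65.0 ± 2.1, 106.8 ± 1.2 and 0.53 ± 0.074, a pattern of the same order as that of Hmga2.

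Of 25 imprinted growth genes, the class to which H19 and Igf2 belong, 6 passed the filter. In FLM_M against BMM 2 were higher and 2 lower (median -0.03), in FLM_G against BMM 2 and 3 (median -0.58), and in FLM_G against FLM_M 1 and 4 (median -0.74). With 6 genes tested, these counts do not set the list apart from the 44.6%, 68.0% and 70.6% called over all genes. Cd81, a tetraspanin gene, was higher in FLM_M than in BMM (136.6 against 73.5, log2 difference 0.89, limma adjusted p = 1.322e-06) and was at 76.8 in FLM_G. Zrsr1, a splicing factor gene, was at 1.82, 5.49 and 3.09. Gatm, which encodes an enzyme of creatine synthesis, was at 37.5 ± 0.77 (SD, n = 3) in BMM, 41.6 ± 3.0 in FLM_M and 0.0088 ± 0.015 in FLM_G.

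**Figure D4:**
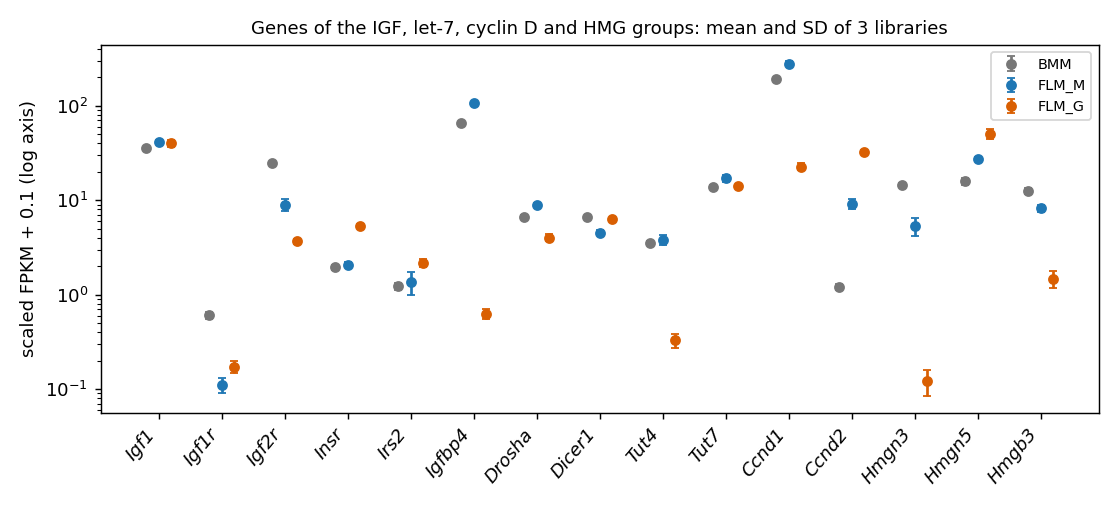
Mean scaled FPKM plus 0.1 (y axis, log scale) of genes of the IGF, let-7, cyclin D and HMG groups in BMM (grey), FLM_M (blue) and FLM_G (orange), with whiskers for the SD of 3 libraries. Igfbp4 and Hmgn3 are lowest in FLM_G, at 0.53 and 0.0214 scaled FPKM, and Ccnd2 is highest there at 32.1.

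Among 20 genes of the HMG box, HMGN and ARID families, relatives of Hmga1, Hmga2 and Arid3a in their DNA or nucleosome binding, 18 were tested. In FLM_M against BMM 2 were higher and 6 lower (median -0.10), in FLM_G against BMM 3 and 11 (median -0.51), and in FLM_G against FLM_M 3 and 8 (median -0.20). These counts stand beside 44.6%, 68.0% and 70.6% of all tested genes called. Hmgn3, a nucleosome-binding protein gene, was at 14.55 ± 0.46 (SD, n = 3) in BMM, 5.27 ± 1.2 in FLM_M and 0.0214 ± 0.037 in FLM_G, while Hmgn5, of the same family, was at 15.7 ± 1.3, 27.3 ± 1.4 and 50.25 ± 6.3. Hmgb3, an HMG box gene of blood progenitors, was at 12.4 ± 0.92, 8.16 ± 0.71 and 1.37 ± 0.30.

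All 19 partners of IGF2BP proteins and m6A genes were tested. None was higher and 6 were lower in FLM_M against BMM (median -0.16), 1 was higher and 10 lower in FLM_G against BMM (median -0.23), and 3 were higher and 5 lower in FLM_G against FLM_M (median 0.01). The shares of all tested genes called were 44.6%, 68.0% and 70.6%. Ybx3, a cold shock RNA-binding protein gene, was lower by 1.21 in FLM_M than in BMM (38.5 against 90.2, limma adjusted p = 1.783e-06) and was at 67.0 in FLM_G. Pabpc1, the poly(A)-binding protein gene, was lower by 0.59 in FLM_M than in BMM (126.5 against 191.1, limma adjusted p = 1.207e-05). Hnrnpu, a nuclear RNA-binding protein gene, was at 62.9, 60.5 and 31.1.

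Proliferation genes are given because Hmga1 and Hmga2 are typical of dividing cells. Of 16, 4 were higher and 4 lower in FLM_M against BMM (median 0.04). All 16 were lower in FLM_G than in BMM (median -1.23) and all 16 lower than in FLM_M (median -1.26). Over all tested genes 44.6% were called in FLM_M against BMM. In FLM_G 34.1% of all tested genes were lower than in BMM and 35.1% lower than in FLM_M. Mki67, named after its values were seen, was at 90.7 ± 1.1 (SD, n = 3) in BMM, 90.2 ± 6.3 in FLM_M and 37.35 ± 1.9 in FLM_G. Against BMM, Hmga1 was lower and Igf2bp3 higher in both fetal liver cultures, while Hmga2 was higher in FLM_M and near 0 in FLM_G. The part of cell division in the levels of these genes was not tested.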

How the data were processed

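RNA of 9 libraries was sequenced for 101 cycles from 1 end after a stranded mRNA preparation, per the labels' protocols. Per the submitters' processing notes the builds were GRCm38 and mm10, and HISAT2, StringTie, DESeq2, cutadapt, bcl2fastq and FastQC were used. Tool roles and versions are not given in the sources used here. The authors deposited whole-number read counts and FPKM for the same 46078 genes.

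FPKM were the measure here, since deposited counts summed to 782400 to 1170813 per library, far below the 28390000 to 35470000 reads implied by the FPKM, and 36.1% of counts belonged to genes whose mean FPKM was under 0.5. FPKM were scaled by TMM factors (edgeR 4.0.16, unweighted, 0.801 to 1.14). The 11952 genes that reached 1 FPKM in 3 or more libraries were tested in limma 3.58.1 (R 4.3.3, trend) on log2(scaled FPKM + 1), with a mean per culture over 9 libraries, 6 residual degrees of freedom, and calls at an adjusted p under 0.05. A fold change on this scale understates the change of low genes. The step was tested on simulated data. Changes were placed there only in genes with a higher BMM level than Igf2bp2, Igf2bp3 and Arid3a, so the simulation does not cover these members.

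The 10 members and all gene lists were chosen with earlier results of these data known. All members were named. Of each list, up to 4 called genes per comparison with the largest change and a mean of at least 5 qualified for naming, and for each tested member the 2 genes nearest in profile; exceptions are stated. Of 148 list entries 147 were found, 7 under another name, and 45143 gene identifiers were in GENCODE M21. Alternatives were RLE factors or no scaling, other filters (none, 5 FPKM), the replicate number as a block, 0.1 as pseudocount, a fit of only the libraries compared, each library left out, a 1.5-fold test (limma treat), and count tests by DESeq2 1.42.0 and edgeR. 1 gene that qualified for naming is not reported here.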

Additional observations from a re-analysis of the deposited data

How the results depend on the processing

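Over the alternatives on FPKM, 321 of 335 results for single members kept their direction and side of the threshold, 8 lost and 4 gained a call, and 2 turned, both without scaling: Hmga1 in FLM_G against FLM_M (-0.36) and Igf2bp2 in FLM_G against BMM (-0.082). On the counts 11 of 40 lost a call, all of Igf2bp2 or Igf2bp3, 1 gained one, and 4 that passed in neither table turned, all in FLM_G against FLM_M: Igf2bp2 was at 0.24 (edgeR) and 0.27 (DESeq2) and Hmga1 at -0.22 and -0.19. Without scaling the median gene moved to 0.05 in FLM_M against BMM, -0.34 in FLM_G against BMM, -0.39 in FLM_G against FLM_M and -0.13 for the mean of both fetal liver cultures. The share of called genes that were higher then went from 49.8% to 23.5%, from 50.3% to 23.9% and from 51.8% to 30.6% in the last 3 comparisons, and 5 members were called in FLM_G against FLM_M (1 higher, 4 lower).

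In the order FLM_M against BMM, FLM_G against BMM, FLM_G against FLM_M and the mean against BMM, the genes called were 5329, 8125, 8441 and 6629. The members called were 4, 4, 3 and 5. A test against a 1.5-fold change called 1045, 2740, 3162 and 1370 genes, with 2, 4, 2 and 4 members. The edgeR test on the counts called 1300, 2458, 2855 and 1650 genes, with 4, 3, 2 and 3 members. DESeq2 on the counts called 827, 2201, 2631 and 1269 genes, with 2, 3, 2 and 3 members. The cause of the difference between the tables was not tested. Leaving out each library, genes called were 4192 to 5509, 7239 to 8063, 7606 to 8242 and 5461 to 6550, and members called 3 to 5, 4, 3 to 4, and 4 to 5.

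With the replicate number as a block, 5140, 8018, 8386 and 6451 genes were called, and of the member calls only that of Igf2bp2 in the mean against BMM was lost (0.38, limma adjusted p = 0.05067). Libraries with the same number shared little (correlations of deviations -0.0771 to 0.0899), and not every library correlated best with its own number. Depth limits Igf2bp1, H19, Igf2 and the Lin28 genes, at under 4 implied reads per library.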
